A study of Mus musculus with 8 samples.

Results

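The core loop of the circadian clock was followed through 10 listed genes, 3 activators (Arntl, Clock and Npas2) and 7 repressors (Per1, Per2, Per3, Cry1, Cry2, Nr1d1 and Nr1d2). They were taken by gene symbol from the annotation of the array. Where several probe sets named a gene alone, the one of highest mean signal stood for it, and 9 of the 10 were measured among 19934 genes in all. Npas2 was not analysed here, so the activator arm consisted of Arntl, which encodes BMAL1, and Clock. Each of the 9 had a single probe set. Liver RNA came from 8 male C57Bl/6 mouse samples on Affymetrix Mouse Gene 1.0 ST arrays, 4 of the genotype NS-DADm and 4 wild type (WT). NS-DADm livers carried mutations in the deacetylase-activating domain (DAD) of both corepressors NCOR and SMRT, which is the stretch that binds HDAC3 and turns on its enzymatic activity. The titles, descriptions and genotype labels of all 8 samples give these groups, although the growth protocol, worded alike for every sample, calls the mice WT. The labels do not say whether the mutations were present in every tissue, nor whether each array stood for a separate animal, so p-values describe the spread between these samples only. In both groups the mice were 10 to 12 weeks old, ate normal chow, were kept on a cycle of 12 h light and 12 h dark, and had their livers taken at zeitgeber time 10 (ZT10, in hours from lights on). With 1 time of day, neither phase nor amplitude was measured.

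In the clock loop, BMAL1 pairs with CLOCK or NPAS2 on E-box elements and drives the Per, Cry and Nr1d genes. PER and CRY proteins return to the nucleus and inhibit the activator pair, which closes the main negative loop. The Nr1d genes encode the nuclear receptors REV-ERBalpha and REV-ERBbeta, which sit on ROR elements of Arntl and other genes and silence them by recruiting NCOR and HDAC3. In liver this loop times glucose, lipid and bile acid metabolism.

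Start-site sequences from RefSeq (build GRCm38.p6, 250 bases before to 50 after a start) were matched for 9 of the 10 listed genes, Per2 being the other. They made 13 windows, 3 for Clock, 2 each for Arntl and Per1, and 1 for each other matched gene. The matches of Arntl and Per1 each lay in 1 of the gene's 2 windows. Stretches with a match are shown because the loop acts through elements of these kinds, and capitals mark the letters searched on both strands. Whether it acts through the stretches printed here was not measured. CACGTG is the E-box and CACGTT its E-prime variant, TTATGTAA and TTACGTAA are D-box forms bound by DBP and its relatives, and TAGGTCA and TGGGTCA were used as the core of the ROR element. Of all 32851 windows in the table, 7.15% held the E-box, 4.68% the E-prime box, 1.06% a D-box and 6.45% a ROR core. No match of these letters was found in the windows of Clock, Npas2 and Nr1d2, and no matches in the members overlapped. Positions count from the start site, with -1 the base before it.
Arntl, chr7:113207529-113207558, plus strand, positions 19 to 48: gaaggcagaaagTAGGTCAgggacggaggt
Per1, chr11:69098766-69098805, plus strand, positions -183 to -144: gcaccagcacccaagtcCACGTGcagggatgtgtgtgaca
Per3, chr4:151044846-151044887, minus strand, positions -222 to -181: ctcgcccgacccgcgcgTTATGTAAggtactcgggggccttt
Per3, chr4:151044799-151044840, minus strand, positions -175 to -134: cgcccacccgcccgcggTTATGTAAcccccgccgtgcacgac
Cry1, chr10:85185092-85185150, minus strand, positions -96 to -38: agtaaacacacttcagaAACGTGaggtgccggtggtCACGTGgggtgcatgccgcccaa
Nr1d1, chr11:98775383-98775422, minus strand, positions -45 to -6: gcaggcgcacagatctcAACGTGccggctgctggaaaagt
Cry2, chr2:92434100-92434319, minus strand, positions -250 to -31: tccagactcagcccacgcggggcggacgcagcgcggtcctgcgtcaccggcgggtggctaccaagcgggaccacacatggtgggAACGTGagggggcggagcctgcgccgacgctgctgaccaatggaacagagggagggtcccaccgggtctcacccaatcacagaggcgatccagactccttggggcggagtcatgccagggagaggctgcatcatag
A longer stretch is given for Cry2, the member that passed the test. Cry1 had an E-prime box and an E-box in 1 stretch, whereas Cry2 and Nr1d1 each had an E-prime box alone, read on the opposite strand as AACGTG. A match is a description of the letters, and binding was not measured.

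The median log2 intensity of an array was 7.393 to 7.496, and arrays correlated at r = 0.993 to 0.998 in pairs, within groups or between them. The 8 hepatocyte markers, among them Alb and Apoa1, averaged 13.62 to 13.63 on the WT arrays and 13.58 to 13.61 on the NS-DADm arrays. These means were near the top of the table's range of 3.43 to 14.37. Tat (-0.20) and Serpina1c (-0.09) changed most and were lower in NS-DADm livers without overlap, while 5 of the 8 lay above 0. None of the 8 passed the test in limma, and 1, Tat, had an unadjusted p under 0.05. Of 19934 genes 54 passed it at an adjusted p under 0.05, 32 higher and 22 lower in NS-DADm livers. Leaving out WT replicate 2 or 3 brought that count to 13 or 22, leaving out NS-DADm replicate 2 or 3 brought it to 31 or 35, and leaving out NS-DADm replicate 4 raised it to 126. The number of arrays limits the precision.

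At ZT10 both measured activators were at higher mean levels in NS-DADm livers and all 7 repressors at lower ones, but Cry2 was the single member whose difference passed the test. Cry2, a cryptochrome that blocks BMAL1 and CLOCK, fell to 0.703 of its WT level. Of the 9 members, 1 passed at an adjusted p under 0.05, against 0.271% of all genes, and it was lower, as were 0.110% of all genes. No member passed in the higher direction, against 0.161% of all genes. At an unadjusted p under 0.05 there were 4 members, Cry2, Per1, Clock and Arntl, against 9.33% of all genes. Groups without overlap were found for 1 of the 9, against 5.63% of all genes. The median log2 fold change was -0.14 over the 9 members, 0.22 over the 2 activators and -0.22 over the 7 repressors, beside -0.01 over all genes, of which 55.6% lay below 0. The members were chosen with results of these data known, so these shares are a description and not a test of the loop.

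**Figure D1:**
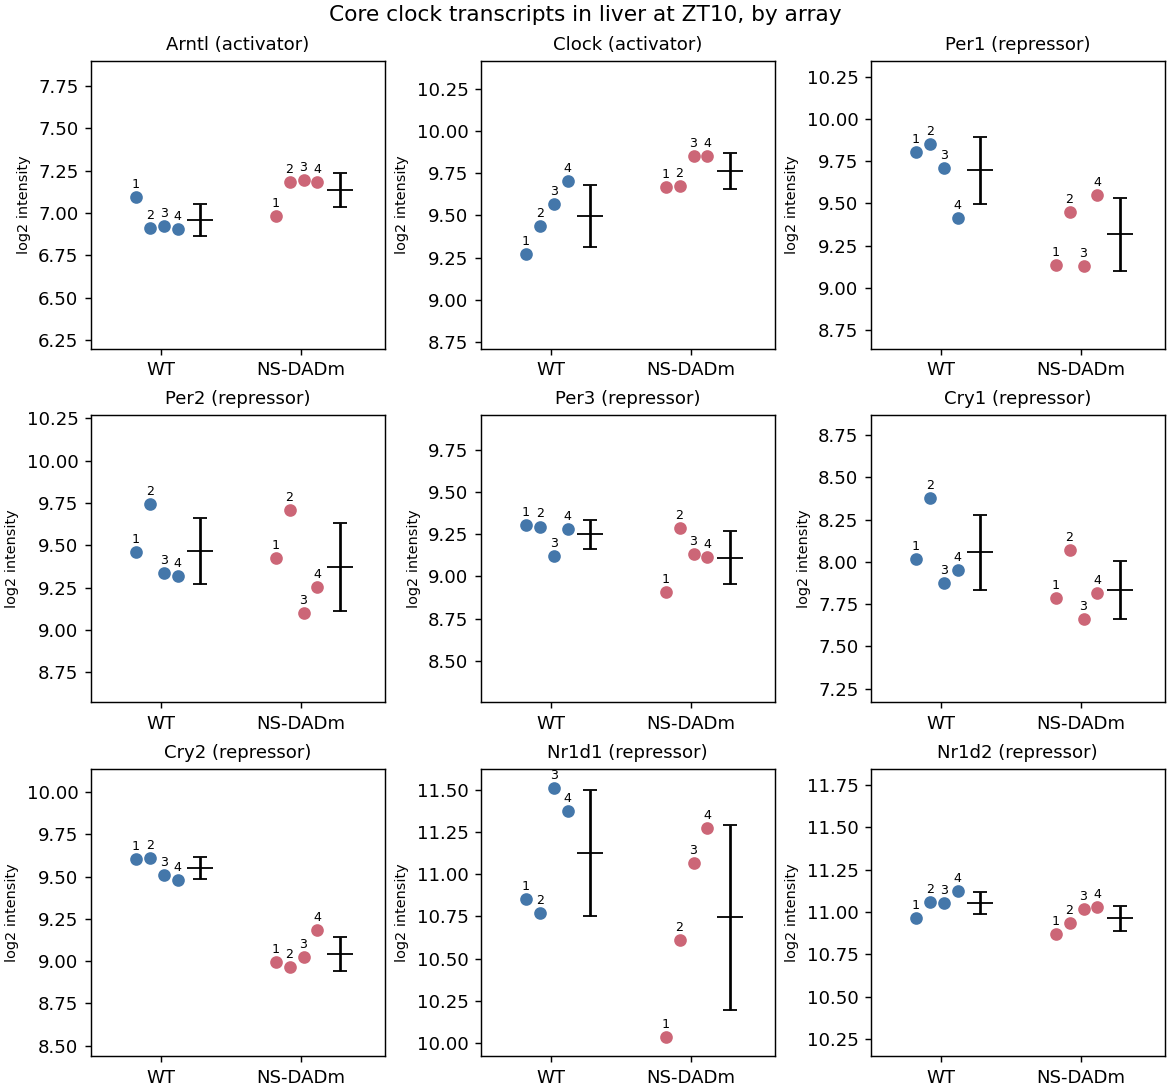
Log2 intensity (vertical axes, each spanning the same range) of the 9 measured clock genes in WT and NS-DADm livers, with points numbered by replicate and bars for the mean and SD of 4 arrays. For Cry2 the NS-DADm points, 8.97 to 9.19, lie below all WT points, while in the other 8 panels the groups overlap.

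Averaged within each arm, the 2 genotypes were separated. The mean log2 level of Arntl and Clock was 8.18, 8.17, 8.25 and 8.30 in WT replicates 1 to 4, and 8.33, 8.43, 8.52 and 8.52 in NS-DADm replicates 1 to 4. The mean of the 7 repressors was 9.71, 9.82, 9.73 and 9.71 in the WT samples and 9.31, 9.57, 9.45 and 9.60 in the NS-DADm samples. In neither arm did the groups overlap, with NS-DADm livers above WT for the activators and below it for the repressors. Such separation was not particular to the arms. The mean of the 8 hepatocyte markers was 13.62 to 13.63 in WT and 13.58 to 13.61 in NS-DADm samples. Of these markers 5 lay above 0, with a median log2 fold change of 0.005, and 2, Tat and Serpina1c, were lower without overlap. The mean of a list of 7 glucocorticoid-responsive genes was 10.73 to 10.93 in WT and 10.50 to 10.67 in NS-DADm samples. The means of the other lists read here overlapped between groups. Activators minus repressors was -1.52 ± 0.10 in WT and -1.04 ± 0.10 in the mutants (log2 units with SDs over 4 arrays), a shift of 0.48. Without Cry2 the shift was 0.44, and leaving out any other repressor gave 0.46 to 0.51, with no overlap between groups in any of these. Different probe sets have no common scale, so the shift between groups can be read but not the level of an arm, and no p is given because the arms were picked with results in view.

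**Figure D2:**
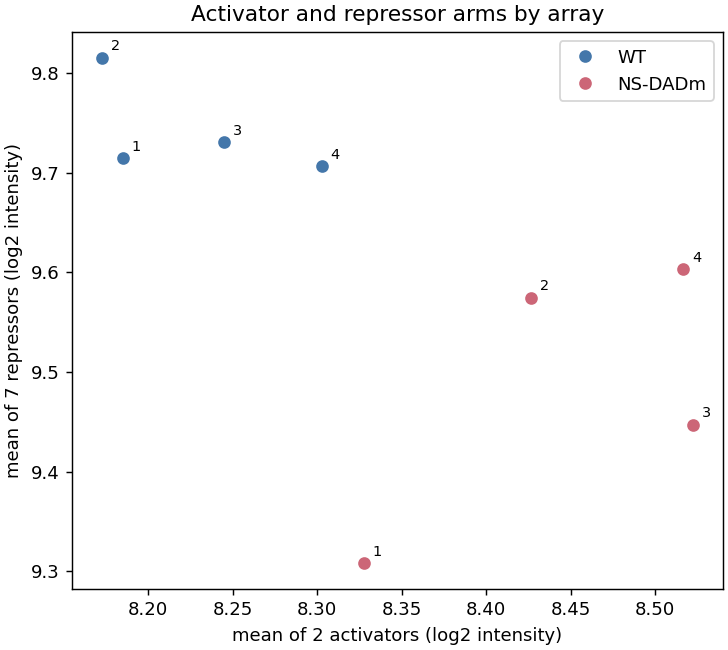
Mean log2 intensity of the 2 measured activators (horizontal axis) against that of the 7 repressors (vertical axis), 1 numbered point per array. The NS-DADm arrays lie to the right of and below the WT arrays, and NS-DADm replicate 1 has the lowest repressor mean (9.31) and the lowest activator mean of its group (8.33).

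Among the activators, Arntl encodes the obligate partner of the pair and is the classical target of REV-ERB silencing through ROR elements. The stretch shown above holds the letters of a ROR core, whose use was not measured. It read 7.10, 6.91, 6.92 and 6.90 in WT replicates 1 to 4, and 6.98, 7.18, 7.19 and 7.18 in NS-DADm replicates 1 to 4. In each group replicate 1 stood apart from the other 3, in opposite directions, so that 3 of 4 NS-DADm arrays exceeded every WT array. The difference was 0.18 on the log2 scale, a fold change of 1.13 (SE 0.069, 95% confidence interval 1.02 to 1.26 in fold), and did not pass the test (limma, adjusted p = 0.441).

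Clock encodes BMAL1's partner, which has histone acetyltransferase activity. Its values were 9.27, 9.44, 9.57 and 9.70 in WT replicates 1 to 4, and 9.67, 9.67, 9.85 and 9.85 in NS-DADm replicates 1 to 4. All NS-DADm arrays lay above the WT mean of 9.49, but WT replicate 4 reached above the lower pair. The log2 fold change of 0.27 (SE 0.091, 1.20-fold, interval 1.05 to 1.38) did not pass over all genes (limma, adjusted p = 0.366).

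The Period genes encode the PER scaffold proteins that carry CRY into the repressor complex, and Per1 and Per2 also respond to acute hormonal and feeding signals. Per1 read 9.80, 9.85, 9.71 and 9.41 in WT replicates 1 to 4, against 9.14, 9.45, 9.13 and 9.55 in NS-DADm replicates 1 to 4. WT replicate 4 fell within the NS-DADm range, and all 4 NS-DADm arrays lay below the WT mean of 9.70. The log2 fold change of Per1 was -0.38 (SE 0.12, 0.769 of WT, interval 0.641 to 0.922, limma adjusted p = 0.313). With WT replicate 4 and NS-DADm replicate 4 both left out, an alternative added after the data were seen, it was -0.55 and passed (limma, adjusted p = 0.0330). In these livers the 7 glucocorticoid-responsive genes of a list also lay below 0, with a median of -0.13, none past the test in limma and 3 at an unadjusted p under 0.05. Their mean was 10.73 to 10.93 on the WT arrays and 10.50 to 10.67 on the NS-DADm arrays, and their part in the Per1 values was not tested. The 3 were Tsc22d3 (-0.45), which encodes the protein GILZ, Zbtb16 (-0.41), a zinc-finger factor, and Fkbp5 (-0.39), a chaperone of the glucocorticoid receptor.

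Per2 and Per3 were closer between genotypes. Per2 was at 9.46, 9.74, 9.34 and 9.32 in the WT samples and at 9.42, 9.71, 9.10 and 9.26 in the NS-DADm samples, in the order of their replicate numbers. Replicate 2 was the highest array of each group, and the groups overlapped across most of their range. Its difference was -0.09 (SE 0.13, 0.938 of WT, interval 0.767 to 1.15, limma adjusted p = 0.937), and it was 0.00 without WT replicate 2 and -0.21 without NS-DADm replicate 2. Per3, the Period gene whose loss affects the rhythm least, was at 9.30, 9.29, 9.12 and 9.28 in the WT samples and at 8.91, 9.29, 9.13 and 9.12 in the NS-DADm samples. NS-DADm replicate 1 was the lowest of the 8 and NS-DADm replicate 2 matched the upper WT arrays. The difference of Per3 was -0.14 (SE 0.081, 0.908 of WT, interval 0.802 to 1.03, limma adjusted p = 0.669). With NS-DADm replicate 1 left out it was -0.07.

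The cryptochromes are the direct inhibitors of the activator pair. Cry2 (Entrez Gene 12953) read 9.60, 9.61, 9.51 and 9.48 in WT replicates 1 to 4, and 8.99, 8.97, 9.02 and 9.19 in NS-DADm replicates 1 to 4. The gap between the lowest WT and the highest NS-DADm array was wider than the range within either group. The group means were 9.55 ± 0.07 and 9.04 ± 0.10 (log2, SD, n = 4 each), and the log2 fold change was -0.51 (SE 0.064, 0.703 of WT, interval 0.638 to 0.775, limma adjusted p = 0.0102). Without WT replicate 2 it was -0.49 and missed the threshold (limma, adjusted p = 0.0684). Leaving out any of the other 7 arrays gave an adjusted p of 0.00458 to 0.0447. In bulk tissue, fewer cells of a type and less RNA per cell cannot be told apart. The 8 sinusoidal endothelial markers, Stab2 and Clec4g among them, also lay below 0 in NS-DADm livers, with a median of -0.285, none past the test in limma and 6 at an unadjusted p under 0.05. Their mean was 9.55 to 9.75 on the WT arrays and 9.11 to 9.70 on the NS-DADm arrays, and NS-DADm replicate 4 had the highest value of its group for both these markers and Cry2. That array was also the highest of its group for the means of hepatocyte, Kupffer cell, stellate cell, neutrophil and lymphocyte markers. Among WT arrays, replicate 2 had the highest endothelial mean (9.75) and the highest Cry2 value (9.61). WT replicate 1 had the lowest endothelial mean (9.55) while its Cry2 value, 9.60, was above those of replicates 3 and 4. The part of these markers in the Cry2 values was not tested. Without NS-DADm replicate 4 the difference of Cry2 was -0.56.

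Cry1, usually the later and stronger of the cryptochrome repressors and itself a ROR-element gene, was lower in mean without passing. It read 8.02, 8.38, 7.87 and 7.95 in WT replicates 1 to 4, and 7.79, 8.07, 7.66 and 7.82 in NS-DADm replicates 1 to 4. Replicate 2 was again the highest of each group, and 3 of the NS-DADm arrays lay below every WT array. The difference was -0.22 (SE 0.12, 0.858 of WT, interval 0.718 to 1.02, limma adjusted p = 0.611), and was -0.11 without WT replicate 2. Whether Cry1 and Cry2 differed in their response was not tested.

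The Nr1d genes encode the REV-ERB receptors, which recruit the corepressors mutated in NS-DADm livers. Nr1d1 was at 10.85, 10.77, 11.51 and 11.37 in WT replicates 1 to 4, and at 10.04, 10.61, 11.07 and 11.27 in NS-DADm replicates 1 to 4. Replicates 3 and 4 exceeded replicates 1 and 2 in both groups, and the NS-DADm arrays covered 1.23 log2 units. The log2 fold change of -0.38 had an SE of 0.25, larger than that of 99.6% of all genes, and its interval of 0.522 to 1.13 in fold spanned no change (limma, adjusted p = 0.739). Without NS-DADm replicate 1 the difference was -0.14, and without NS-DADm replicate 4 it was -0.56.

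Nr1d2, the paralog with overlapping duties, varied far less. It was at 10.97, 11.06, 11.05 and 11.13 in the WT samples and at 10.87, 10.93, 11.02 and 11.03 in the NS-DADm samples. All 4 NS-DADm arrays lay below the WT mean of 11.05, and 2 of them below every WT array. The difference was -0.09 (SE 0.059, interval 0.859 to 1.03 in fold, limma adjusted p = 0.739). Leaving out NS-DADm replicate 1 brought it to -0.06.

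**Figure D3:**
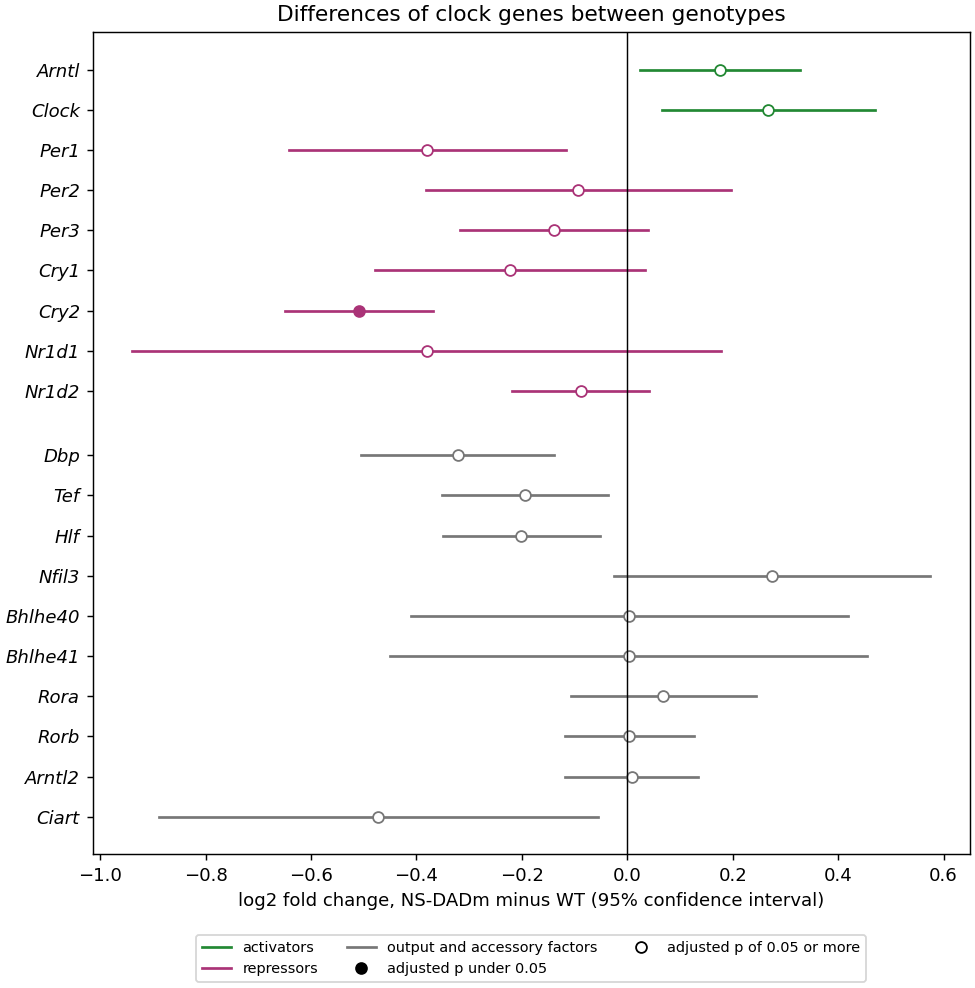
Log2 fold change of NS-DADm against WT (horizontal axis, bars for 95% confidence intervals, n = 4 per group) for the clock members by arm and, in grey, for 10 output and accessory factors. Cry2, at -0.51, is the filled point with an adjusted p under 0.05, and Nr1d1 has the widest interval of the 9 members.

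With genotype means removed, the members were compared in pairs for joint variation from array to array. Of 36 member pairs, 4 had an exact permutation p under 0.05 (permuting within groups, two-sided) and none had one after Benjamini-Hochberg adjustment over the pairs, where the smallest was 0.25. Per2 and Cry1 gave the highest correlation (Pearson r = 0.926, exact permutation p = 0.00694, Spearman rho = 0.81, exact permutation p = 0.0295, n = 8), with adjusted values of 0.25 and 0.531. Without the farthest arrays of Per2, which were replicate 2 of each group, r was 0.687. Clock and Nr1d2 followed (r = 0.891, exact permutation p = 0.0174, rho = 0.946, exact permutation p = 0.0104, n = 8, adjusted values 0.312 and 0.375), with r = 0.819 without WT replicates 1 and 4, the farthest arrays of Clock. The remaining pairs were Nr1d1 with Nr1d2 (r = 0.815, exact permutation p = 0.0417, rho = 0.643, exact permutation p = 0.132) and Clock with Nr1d1 (r = 0.753, exact permutation p = 0.0451, rho = 0.695, exact permutation p = 0.0833), both with an adjusted value of 0.406 for r. Cry2 correlated at most with Per1 (r = 0.687, exact permutation p = 0.0729, adjusted 0.525, rho = 0.571, exact permutation p = 0.203, n = 8). Without WT replicate 2 and NS-DADm replicate 4, the farthest arrays of Cry2, r was 0.359. Without those of Per1, WT replicate 4 and NS-DADm replicate 3, it was 0.666.

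**Figure D4:**
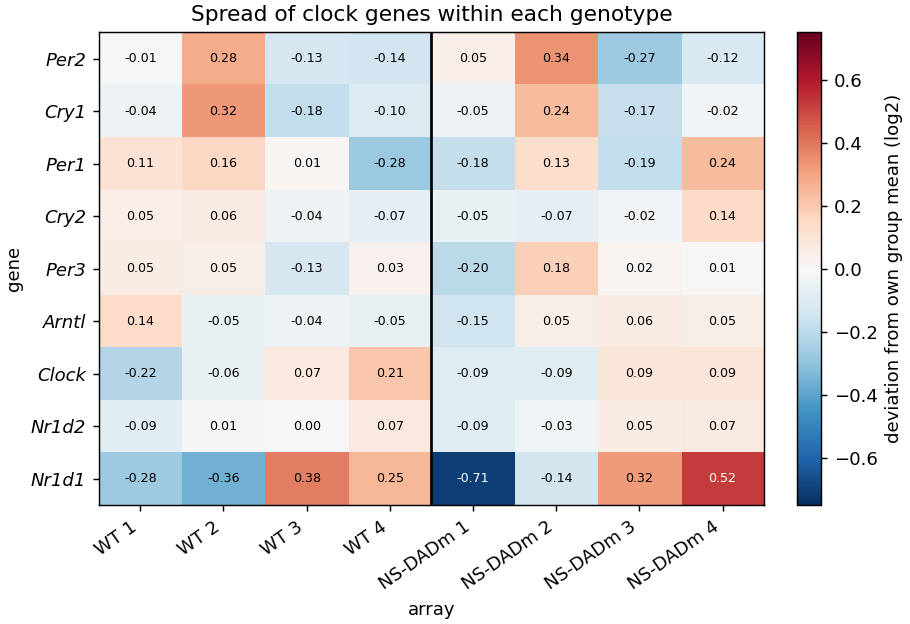
Deviation of each of the 9 members (rows) from its own group mean, in log2 units, on the 8 arrays (columns, split by genotype). Per2 and Cry1 are highest in replicate 2 of both groups, Clock and Nr1d1 are below their group means in replicates 1 and 2 and above them in replicates 3 and 4, and the widest cell is Nr1d1 in NS-DADm replicate 1 (-0.71).

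Over 8 arrays the genes whose levels ran most like Cry2, among 9649 at or above the median level, were Phf1 (Pearson r = 0.984), which encodes a Polycomb-associated PHD finger protein, Sh3rf1 (0.975), a scaffold and ubiquitin ligase gene, and Gstp1 (0.970), a glutathione transferase gene whose probes are open to its close paralogs. After group means were removed the correlations were 0.758, 0.694 and 0.825. These values describe likeness over few arrays in 2 groups and carry no p. The log2 fold changes were -0.28 for Phf1, -0.26 for Sh3rf1 and -0.43 for Gstp1, with limma adjusted p of 0.0538, 0.0891 and 0.0511, none past the threshold.

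Other genes of the clock were read from lists, beside 1117 lower and 742 higher of all 19934 genes at an unadjusted p under 0.05. Groups without overlap were lower for 763 and higher for 359 of these 19934 genes. Of 10 measured output and accessory transcription factors none passed the test in limma, 4 were lower at an unadjusted p under 0.05 and none higher, and the median was 0.00. Ciart, a repressor of the activator pair, was at -0.47, with an adjusted p of 0.454. The albumin D-box factor Dbp read 10.34, 10.48, 10.54 and 10.51 in WT replicates 1 to 4 and 9.92, 10.18, 10.17 and 10.32 in NS-DADm replicates 1 to 4, without overlap (limma log2 fold change -0.32, adjusted p = 0.205). Its relatives Tef (-0.19) and Hlf (-0.20), named after their values were seen, were likewise separated between groups, short of the threshold. These 3 were the only ones of the 10 without overlap, and 6 of the 10 lay above 0. Nfil3, a D-box repressor that REV-ERB silences, was at 0.27 (limma adjusted p = 0.587). Arrays of Nfil3 ran from 8.62 to 8.75 in WT and from 8.53 to 9.32 in NS-DADm livers. Rora, an activator on the elements that REV-ERB occupies and also named after its value was seen, was at 0.07.

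Among 16 measured kinases, ubiquitin ligases and other proteins that act on the clock proteins, none passed the test in limma, 2 had an unadjusted p under 0.05, and the median was -0.06. The clock-controlled deubiquitinase gene Usp2 read 10.73, 10.79, 10.62 and 10.52 in WT replicates 1 to 4, and 9.82, 10.18, 10.38 and 10.33 in NS-DADm replicates 1 to 4. Its groups did not overlap, at a log2 fold change of -0.49 (SE 0.11, limma adjusted p = 0.154). Of the 16, 1 was lower and 1 higher without overlap. Prkaa1, a catalytic subunit of AMP-activated protein kinase, which marks CRY1 for degradation, was at -0.19, and the deacetylase gene Sirt1 at -0.16. The casein kinase genes Csnk1d and Csnk1e, whose products phosphorylate PER and which were named for that role after their values were seen, were at -0.05 and -0.15.

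Markers of further cell types were compared beside these results. Of 7 Kupffer cell markers 6 were above 0 (median 0.09), of 6 stellate cell markers 6 were below 0 (median -0.17), and of 6 neutrophil markers 6 were above 0 (median 0.14). None of these passed the test in limma, with 0, 1 and 2 at an unadjusted p under 0.05. Mean levels ran from 8.65 to 9.21 on WT arrays and 8.50 to 9.59 on NS-DADm arrays for Kupffer markers, from 9.14 to 9.46 and 8.76 to 9.63 for stellate markers, and from 6.08 to 6.28 and 6.24 to 6.44 for neutrophil markers. The 4 measured lymphocyte and 4 measured cholangiocyte markers had medians of 0.02 and 0.01, with none past the test in limma and none at an unadjusted p under 0.05. Their part in the clock values was not tested.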

How the data were processed

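The authors deposited 1 table of log2 intensities for 28270 probe sets on 8 arrays. RMA and Partek are named as tools per the submitters' processing notes (versions and genome build not given in the sources used here). A log2 scale was read from the values, which run from 3.43 to 14.37, and folds hold only on that reading. RMA can compress small differences at low signal. No detection call, scan date or batch was given.

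Probe sets were named from the platform annotation, with symbols updated by Entrez Gene identifier (19852 of 19934 genes matched, GRCm38.p6). Sets naming several genes (1617) or none (4873) were left out. No filter on low values was applied. Groups and replicate numbers came from sample titles, which match the genotype label of each sample. All genes were fitted together with limma 3.58.1 in R 4.3.3 (lmFit, eBayes, two-sided, Benjamini-Hochberg over all genes, threshold 0.05), and the steps were tested on simulated data. Errors beside means are SDs, and SEs and 95% intervals come from the fit.

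The members and lists were chosen with earlier results of these data known. All 10 members were to be named. Of each other list those past the test were to be named, or else up to 3 with the largest absolute change, and for each member past the test the 3 genes most correlated with it, leaving out predicted and clone names. Tef, Hlf, Rora, Csnk1d, Csnk1e and the markers Alb, Apoa1 and Stab2 fall outside that rule and were named after their values were seen. Co-variation was planned over all member pairs and run on the 36 measured ones. Alternatives covered probe set choice, filters, normalization, variance model, weights per array, a block for the replicate number, and each array left out. Tables and figures used Python 3.11.15, pandas 2.3.3 and matplotlib 3.10.9.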

Additional observations from a re-analysis of the deposited data

Results flagged for a closer look

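In 24 sets of 4 arrays (each of the 9 members and 3 arm summaries, in each genotype), 3 single arrays stood apart from the rest of their group by a gap, as a share of the group's range, above Dixon's 95% critical value for 4 samples. Chance alone flags about 1 in 20 such sets. Arntl in WT replicate 1, at 7.10, was above the other WT arrays, with a gap of 0.903 of the range. Arntl in NS-DADm replicate 1, at 6.98, was below the others of its group, with a gap of 0.943. Without these arrays, left out singly, the log2 fold change of Arntl was 0.22 and 0.23. Per3 in WT replicate 3, at 9.12, was below the other WT arrays, with a gap of 0.863, and the difference of Per3 was -0.18 without it.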

How the results depend on the processing

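Each member kept the sign of its difference under all alternatives run, 18 for each member but Arntl, which had 17. A filter at the median level removed Arntl, and Per2 came to 0.00 without WT replicate 2. Probe set choice, filters, variance model and replicate block left each difference at its main value, so they could not change a sign. Only normalization, array weights and left-out arrays could move it. Calls changed in 2 cases. Cry2 missed the threshold without WT replicate 2 (-0.49, limma adjusted p = 0.0684), and Per1 passed without WT replicate 4 and NS-DADm replicate 4 (-0.55). That pair was left out after the data were seen, as the array of lowest weight in each group, and gave 2 changed members and 154 changed genes. With each array left out, changed members ran from 0 to 1, changed genes from 13 to 126, and the shift of activators minus repressors from 0.44 to 0.52. Array weights gave 109 changed genes. With the replicate number as a replicate block, 105 genes changed and Cry2 had an adjusted p of 0.0278, with no other member past the threshold. Over all genes, same-numbered arrays did not deviate together in every pair (correlations of 0.146, 0.048, -0.102 and 0.247), so the numbers were not taken as pairs. Arrays of unlike number gave correlations from -0.316 (WT replicate 4 with NS-DADm replicate 2) to 0.258 (WT replicate 4 with NS-DADm replicate 3). Some members did follow the replicate number in both groups. With the block the SE went from 0.25 to 0.11 for Nr1d1 and from 0.12 to 0.058 for Cry1. It went from 0.13 to 0.061 for Per2 and from 0.091 to 0.062 for Clock. Their limma adjusted p with the block were 0.254, 0.199, 0.711 and 0.149. For Arntl, Per1 and Cry2 the SE was larger with the block. Signal over background could not be judged.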

Other observations

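Metabolic genes that the liver clock is known to time were not uniformly displaced. Of 13 measured genes of this list none passed the test in limma, 3 were lower at an unadjusted p under 0.05 and none higher, and the median was -0.05. Lpin1, a phosphatidate phosphatase gene with a strong daily rhythm, read 12.62, 12.54, 12.67 and 12.42 in WT replicates 1 to 4 and 12.25, 12.37, 12.34 and 12.10 in NS-DADm replicates 1 to 4. Its groups did not overlap (limma log2 fold change -0.30, adjusted p = 0.203), which held for 1 of the 13 and for 5.63% of all genes. Cyp7a1, which encodes the rate-limiting enzyme of bile acid synthesis, had the largest value of the list, 0.56, but spread from 11.13 to 12.57 on the WT arrays alone (limma adjusted p = 0.573). Insig2, an anchor of SREBP processing whose transcript REV-ERBalpha represses, was at 0.28, with WT arrays from 10.75 to 11.23 and NS-DADm arrays from 11.12 to 11.72 (limma adjusted p = 0.590).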
